A study of Homo sapiens with 2 samples.

Results

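The genes described here encode the proteins of the cytosolic ribosome. They were found by name: any probe whose current gene symbol is RPL or RPS followed by a digit, or RPLP0, RPLP1, RPLP2 or RPSA, leaving out the RPS6K kinases and pseudogenes. This gave 39 genes measured by 46 probes, among 12445 named genes and 24267 probes in all. Of the 39, 7 belong to the small subunit, 25 to the large subunit with its stalk, and 7 are paralogues that carry the name of a ribosomal protein with a suffix. RefSeq lists 77 core ribosomal protein genes, so the 32 core genes named on the array cover fewer than the full ribosome. The other genes may lie among the 10872 probes without a single gene name, which were not used for this comparison. Probes with no name and probes with several were both left out.

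The cells were KYSE-170, a human oesophageal squamous carcinoma line. In the miR-210 group the cells were transfected, with a lipid reagent, with oligoribonucleotides for miR-210, a microRNA induced by low oxygen. In the ncRNA group they received oligoribonucleotides that the labels call ncRNA, without a sequence. The dose and the time after transfection are not given in the labels. Each group had 1 array, hybridised with Cy5-labelled cRNA made from 500 ng of total RNA, so no value has a replicate and no p-value was computed.

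The median intensity was 36 on the miR-210 array and 39 on the ncRNA array. Among squamous epithelial markers, 10 of the 11 on the array passed the level filter. Over all 11 the median intensity was 301 on the miR-210 array and 125 on the ncRNA array. Their summed intensities of 11776 on the miR-210 array and 15875 on the ncRNA array ran the other way, and the brightest marker alone read 7094 on the miR-210 array and 12693 on the ncRNA array. Of 4 leukocyte markers on the array none passed, with sums of 83 on the miR-210 array and 59 on the ncRNA array. Fibroblast markers passed in 2 of 7 cases, with sums over all 7 of 326 on the miR-210 array and 344 on the ncRNA array. Endothelial markers passed in 2 of 5, with sums over all 5 of 186 on the miR-210 array and 233 on the ncRNA array.

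A ribosome is built from a small subunit, which reads the mRNA, and a large subunit, which joins amino acids. Its proteins are made in balanced amounts, because each subunit needs a single copy of nearly every one, and free ribosomal proteins are degraded. Most of their mRNAs begin with a C followed by an unbroken run of pyrimidines, the terminal oligopyrimidine tract, through which the mTOR pathway controls their translation. Some have duties outside the ribosome: RPL5 and RPL11, with 5S RNA, bind MDM2 and stabilise p53.

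The miR-210 sequence is shown because it is what distinguishes the treated cells. The arm that was transfected is not stated in the labels, and the 3p arm, the one usually meant by miR-210, is given from RefSeq (GRCh38.p14, chr11:568112-568133, minus strand). Capitals mark the seed, bases 2 to 8.
hsa-miR-210-3p: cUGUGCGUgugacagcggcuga

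The sequences around the annotated start of transcription are shown because they carry the feature most of these genes share, and because they let genes with low and near-zero ratios be set side by side. Each line holds 30 bases of GRCh38.p14 from RefSeq, 15 before the start and 15 from the start on, in the direction of the gene. Capitals mark an unbroken run of C and T of at least 8 letters that reaches within 5 bases of the start. The first 3 genes are those at least 2-fold lower with miR-210, the next 3 lay close to a log2 ratio of 0, RPL9 was the highest, and RPL10L is a paralogue.
RPL22 (chr1:6199581-6199610, minus strand): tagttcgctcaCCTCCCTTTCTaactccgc
RPS27 (chr1:153990747-153990776, plus strand): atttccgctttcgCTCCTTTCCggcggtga
RPL13A (chr19:49487593-49487622, plus strand): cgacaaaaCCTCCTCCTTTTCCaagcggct
RPL35 (chr9:124861943-124861972, minus strand): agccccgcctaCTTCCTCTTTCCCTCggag
RPS10 (chr6:34426055-34426084, minus strand): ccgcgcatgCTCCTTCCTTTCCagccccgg
RPS12 (chr6:132814554-132814583, plus strand): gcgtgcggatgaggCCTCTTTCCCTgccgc
RPL9 (chr4:39458908-39458937, minus strand): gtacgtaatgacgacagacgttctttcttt
RPL10L (chr14:46651767-46651796, minus strand): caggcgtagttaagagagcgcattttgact

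Of the 33 ribosomal protein genes with a start sequence, 24 had such a pyrimidine run, or 72.7%, against 13.7% of all 27305 genes with one. The median longest run was 11 bases in the ribosomal protein genes and 4 bases in all genes. A gene with several annotated starts was counted if any of them had the run, and 6 members had no start sequence in the table. Among core proteins 22 of 28 had the run, and among paralogues 2 of 5. The runs of RPL22, RPS27 and RPL13A were 11, 9 and 14 bases long, and those of RPL35, RPS10 and RPS12 were 15, 13 and 11. Not every gene close to 0 had the run. RPL3 and the brighter RPL6 probe stood at log2 ratios of -0.04 and 0.03, and neither gene had it. RPL9 was not counted as having the run: the C and T letters that end its line lie farther from the annotated start than the rule allows.

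After quantile normalization most ribosomal protein mRNAs differed little between the arrays, and 3 stood well below the rest with miR-210. On the deposited scale 31 of the 35 genes kept read lower with miR-210. Each ratio below is the quantile-normalized log2 value on the miR-210 array minus that on the ncRNA array, with 35 of the 39 genes kept by a filter that asked for a mean intensity of about 37.5 or more. RPL22 was 3.8-fold lower on the miR-210 array, RPS27 was 2.31-fold lower and RPL13A was 2.09-fold lower, and no gene was 2-fold higher. That is 3 of 35 genes at least 2-fold lower, against 3.19% of all 6684 genes kept and 2.8% of the 3467 genes in the top 25% of probe brightness, and 0 of 35 at least 2-fold higher, against 3.02%. At 1.5-fold there were 4 lower genes (10.8% of all genes) and 2 higher (11.9% of all genes). These shares describe 2 arrays, and differences between cultures were not measured. In RNA of a whole culture, fewer cells of a kind and less RNA per cell cannot be told apart.

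**Figure D1:**
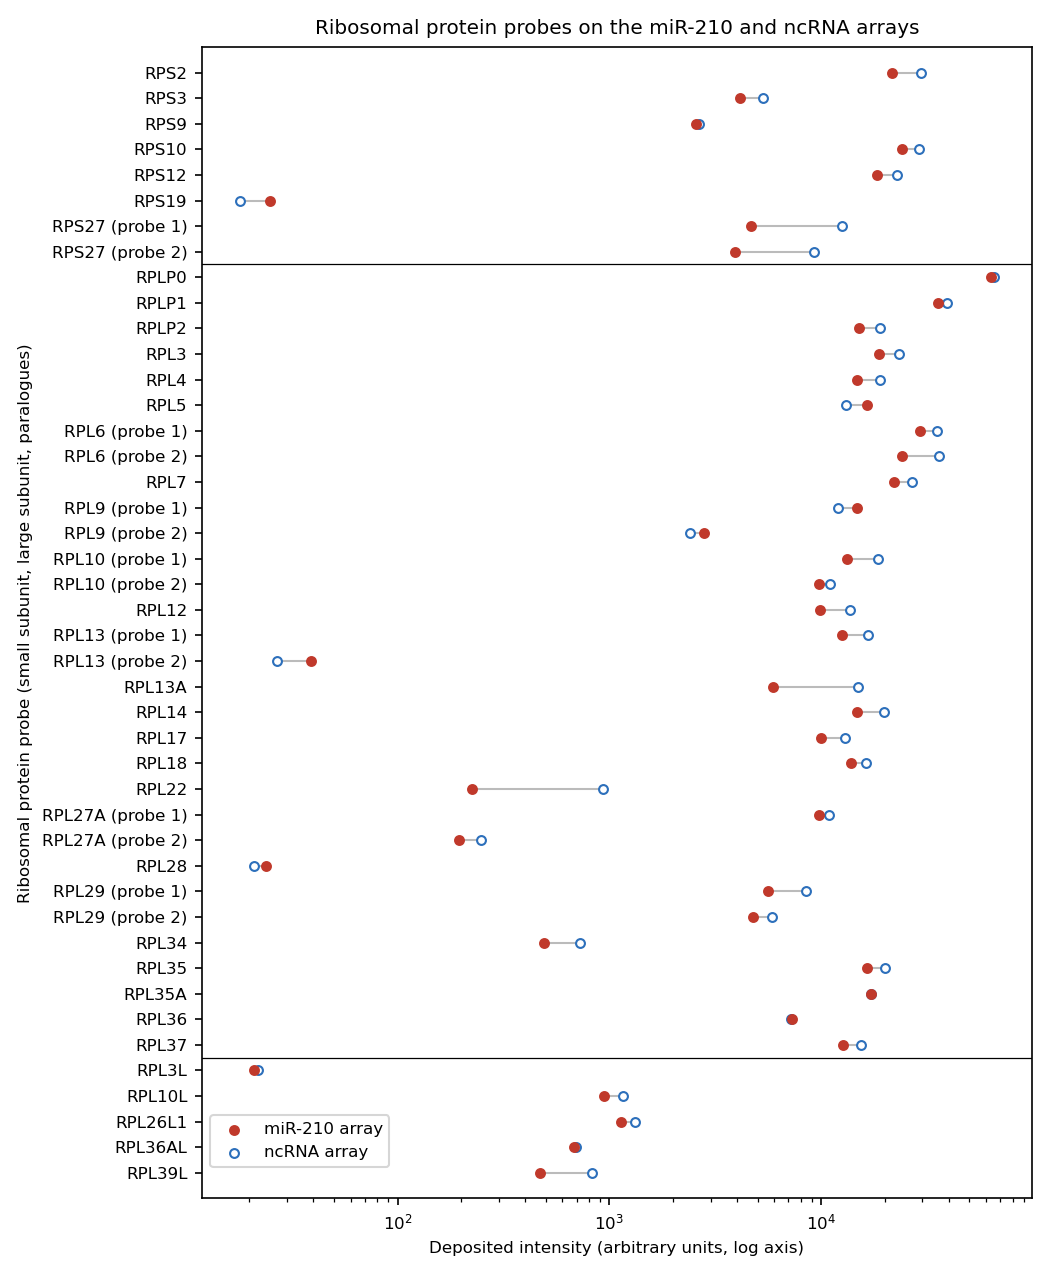
Deposited intensity (arbitrary units, log axis) of 44 ribosomal protein probes, with filled red points for the miR-210 array and open blue points for the ncRNA array; lines divide small subunit, large subunit and paralogues. The pairs of RPL22 (224 and 928), RPS27 and RPL13A are far apart, while most other pairs lie close together.

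RPL22 encodes a large subunit protein that ribosomes can do without, that binds small viral RNAs, and that is lost in some T-cell leukaemias. Its probe read 224 on the miR-210 array and 928 on the ncRNA array, a log2 ratio of -1.93. Among the 6684 genes kept it ranked 21 from the lowest. RPL22 had a single probe, so no second probe checks it. RefSeq lists 22 pseudogenes of RPL22, and transcripts of those could not be told apart from RPL22 here, because probe sequences were not used. Its paralogue RPL22L1, which in mouse is held down by RPL22, is not among the named probes and was not analysed here.

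RPS27, a small subunit protein with a zinc finger, was the member for which the lower level was seen on more than 1 probe. The brighter probe read 4654 on the miR-210 array and 12541 on the ncRNA array, a log2 ratio of -1.21. The other probe read 3906 on the miR-210 array and 9219 on the ncRNA array, a log2 ratio of -1.02. Both probes thus stood at least 2-fold lower with miR-210, with 0.20 between their log2 ratios. RPS27 ranked 124 from the lowest among all genes kept. Its paralogue RPS27L, a p53-induced gene, was not analysed here. RefSeq lists 30 pseudogenes of RPS27.

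RPL13A, a large subunit protein that in interferon-treated monocytes leaves the ribosome to block translation of inflammatory mRNAs, read 5943 on the miR-210 array and 14947 on the ncRNA array. Its log2 ratio was -1.07, at rank 188 from the lowest. It has 1 probe and 25 pseudogenes in RefSeq. RPL13, a different large subunit protein with a similar name, stood near 0: its kept probe read 12474 on the miR-210 array and 16549 on the ncRNA array, a log2 ratio of -0.10.

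The differences of RPL22, RPS27 and RPL13A can be set against the disagreement between probes. In the 251 genes read by several kept probes, single-probe log2 ratios scattered around their gene with a SD of 0.44. For the 6 ribosomal protein genes with 2 kept probes the same SD was 0.17. This error covers probe noise on 1 pair of arrays only, not variation among cultures.

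RPL9 and RPL5 stood at the other end. RPL9, a large subunit protein near the base of the stalk, had 2 kept probes. They read 14731 and 2803 on the miR-210 array, against 11989 and 2401 on the ncRNA array, with log2 ratios of 0.60 and 0.42. RPL5, which carries 5S RNA into the large subunit, read 16461 on the miR-210 array and 13016 on the ncRNA array, a log2 ratio of 0.59. Without normalization the log2 ratios were 0.34 for RPL5 and 0.30 for the brighter RPL9 probe, so both remained higher with miR-210 but neither reached 1.5-fold. RPL11, the partner of RPL5 in the 5S particle, was not analysed here.

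**Figure D2:**
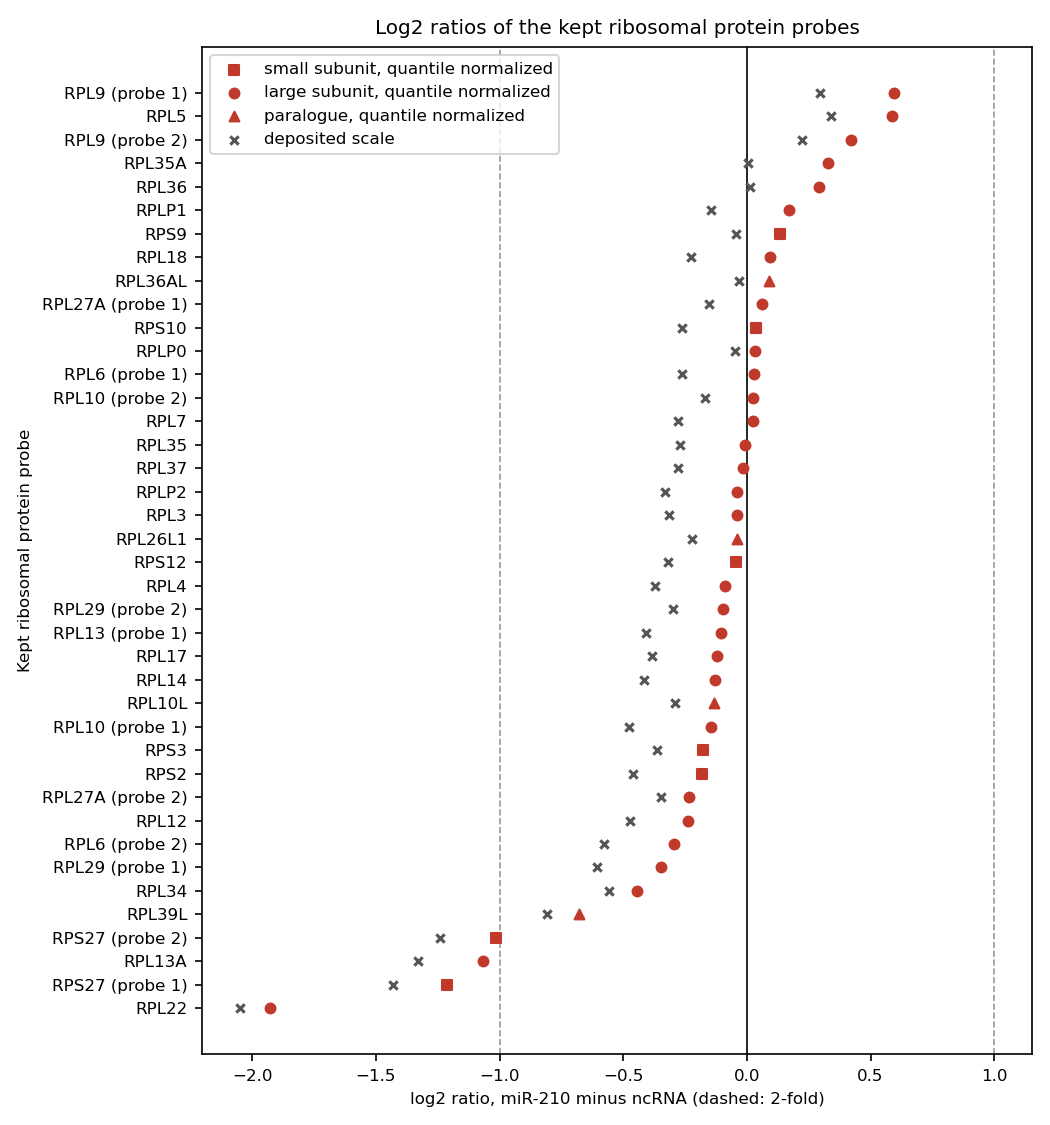
Log2 ratio, miR-210 minus ncRNA, of the kept ribosomal protein probes, after quantile normalization (red; squares small subunit, circles large subunit, triangles paralogues) and on the deposited scale (grey crosses). RPL22 at -1.93 is the lowest, the probes of RPS27 at -1.21 and -1.02 and of RPL13A at -1.07 follow, and on the deposited scale every probe lies further to the left.

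The stalk proteins recruit translation factors to the large subunit, and of these RPLP1 and RPLP2 showed little difference after quantile normalization. RPLP1 read 35565 on the miR-210 array and 39296 on the ncRNA array (log2 ratio 0.17). RPLP2 read 15034 on the miR-210 array and 18887 on the ncRNA array (log2 ratio -0.04). Without normalization the log2 ratios were -0.14 for RPLP1 and -0.33 for RPLP2. RPLP0 read 63370 on the miR-210 array and 65492 on the ncRNA array. The second of these lies above 65000, treated as saturated, so no fold is given for RPLP0. It is still counted among the 35 genes kept and among those within 1.2-fold.

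Of the small subunit, 6 of the 7 named genes were kept, with a median log2 ratio of -0.11 (-0.34 without normalization), 2 above 0 and 4 under it. Apart from RPS27, the highest and lowest were RPS9 and RPS2. RPS9, at the mRNA entry side, read 2560 on the miR-210 array and 2641 on the ncRNA array (log2 ratio 0.14). RPS2, also at the entry side, read 21597 on the miR-210 array and 29700 on the ncRNA array (log2 ratio -0.18). RPS3, which also acts in DNA repair, stood at a log2 ratio of -0.18, RPS12 at -0.04 and RPS10 at 0.04. All these differences were smaller than the probe SD of 0.44 over all genes. Those of RPS2 and RPS3 were slightly larger than the probe SD of 0.17 for ribosomal protein genes.

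Of the large subunit, 24 of 25 named genes were kept, with a median log2 ratio of -0.03 (-0.30 without normalization), 10 above 0 and 14 under it. RPL34 stood lowest after RPL22 and RPL13A, with 492 on the miR-210 array and 724 on the ncRNA array (log2 ratio -0.44). RPL3, which shapes the peptidyl transferase centre, had 18763 on the miR-210 array and 23321 on the ncRNA array (log2 ratio -0.04). RPL4, which lines the exit tunnel, stood at a log2 ratio of -0.09. RPL35A and RPL36 were on the higher side, with log2 ratios of 0.33 and 0.29, and their deposited intensities were nearly equal: RPL35A read 17247 on the miR-210 array and 17201 on the ncRNA array. RPL12, RPL14 and RPL17 stood at log2 ratios of -0.24, -0.13 and -0.12, and RPL7, RPL18, RPL35 and RPL37 at 0.02, 0.09, -0.01 and -0.02.

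Further genes with 2 kept probes showed how much probes of a gene disagreed. RPL6 had probes at log2 ratios of 0.03 and -0.29, RPL10 at -0.14 and 0.02, RPL27A at 0.06 and -0.24, and RPL29 at -0.35 and -0.10. In RPL6, RPL10 and RPL27A the sign differed between the 2 probes after quantile normalization. Both probes of each of these genes read lower with miR-210 on the deposited scale. The probes of RPL27A also differed in brightness, with 9795 and 195 on the miR-210 array, against 10908 and 248 on the ncRNA array.

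Some probes read near the bottom of the intensity range although their genes are used by every cell. RPS19 read 25 on the miR-210 array and 18 on the ncRNA array, and RPL28 read 24 on the miR-210 array and 21 on the ncRNA array. A second probe of RPL13 read 39 on the miR-210 array and 27 on the ncRNA array, a log2 ratio of 0.61 under the filter, where the kept probe of the same gene stood at -0.10. These readings give no level for the genes, being near the array medians of 36 and 39 or under them.

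The paralogues include genes that replace a ribosomal protein in particular tissues. RPL39L, a paralogue of RPL39 made in testis and in some tumours, was the only paralogue among those kept that was at least 1.5-fold lower, with 472 on the miR-210 array and 826 on the ncRNA array (log2 ratio -0.68). RPL10L, a testis paralogue of RPL10, read 946 on the miR-210 array and 1156 on the ncRNA array (log2 ratio -0.13), close to the -0.14 of the brighter RPL10 probe. RPL26L1 and RPL36AL, widely expressed paralogues of RPL26 and RPL36A, stood at log2 ratios of -0.04 and 0.09. RPL3L, the striated muscle paralogue of RPL3, was not kept and read 21 on the miR-210 array and 22 on the ncRNA array. The other 2 paralogues lie on the Y chromosome and are counted but not described.

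After quantile normalization the ribosomal protein genes lay close together. The median log2 ratio of the 35 kept genes was -0.04, with 25% under -0.16 and 25% above 0.07, against a median of 0.01 and quartiles of -0.29 and 0.32 over all genes kept. Differences under 1.2-fold were found in 25 of 35 genes, or 71.4%, against 44% of all genes kept and 47.4% of the 3467 genes in the top 25% of probe brightness. On the deposited scale the share near 0 turned round: 12 of the 35 genes, or 34.3%, were within 1.2-fold, against 41.9% of all genes. That share measures distance from 0 and not spread. The quartiles on that scale were -0.44 and -0.15 for the 35 genes, against -0.42 and 0.20 over all genes. After quantile normalization the SD over the 35 genes was 0.48, and 0.25 without RPL22, RPS27 and RPL13A. Over all genes kept it was 0.54. Most other genes of the same brightness also lay close to 0, but with a wider spread. Of 17 other genes at or above the median level of the ribosomal protein genes, 12 differed by less than 1.2-fold, or 70.6%. The same held for 16 of the 18 ribosomal protein genes there, or 88.9%. The SD was 0.44 in the 17 other genes and 0.18 in the 18 ribosomal protein genes. RPL22, RPS27 and RPL13A lay under that level and are not among the 18.

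**Figure D3:**
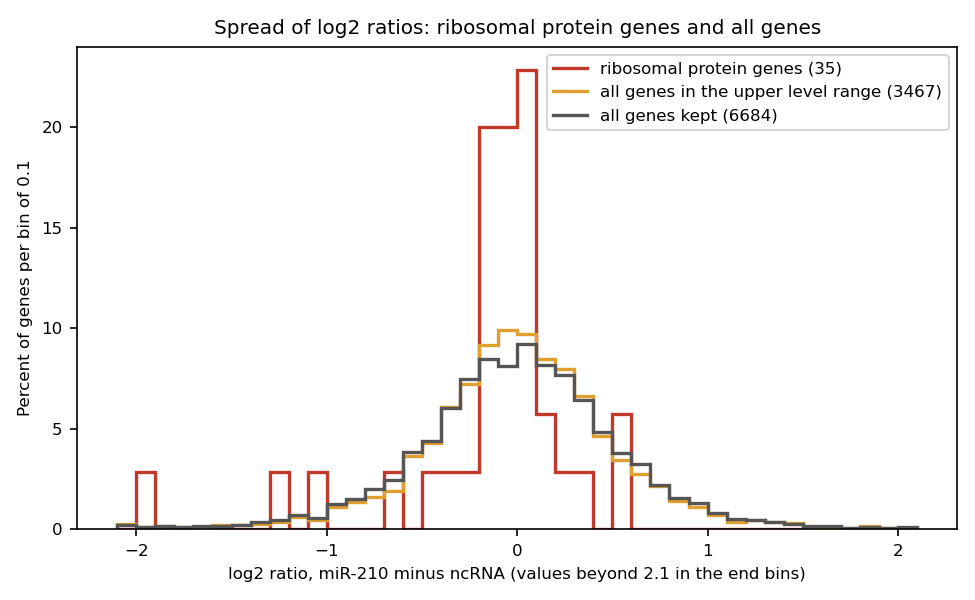
Percent of genes in bins of 0.1 in log2 ratio, miR-210 minus ncRNA, for 35 ribosomal protein genes (red), the 3467 genes in the upper level range (orange) and all 6684 genes kept (grey). The red line is gathered around 0, with RPL22, RPS27 and RPL13A in separate bins at and beyond -1.

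Whether the whole group shifted depends on how the arrays are scaled. On the deposited scale the median log2 ratio of the 35 genes was -0.29, against -0.12 over all genes. The other 17 genes of like brightness had a median of -0.27 on that scale, and the 18 ribosomal protein genes among the brightest had -0.28. Of the 242 probes in the top 1% of brightness, 25 belonged to ribosomal proteins, so normalization by level draws on them. With loess on level the median log2 ratio of the ribosomal protein genes was -0.044. It was -0.047 with loess fitted without their probes, a setting chosen after seeing the data. The member probes held 5.1% of the summed intensity on the miR-210 array and 5.38% on the ncRNA array. A common shift of ribosomal protein mRNAs and a difference between the arrays at high brightness cannot be told apart.

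RPL22, RPS27 and RPL13A stayed at least 2-fold lower whichever scale was used. Over the 10 ways of processing, the log2 ratio of RPL22 lay between -2.05 and -1.88, that of RPS27 between -1.43 and -1.11, and that of RPL13A between -1.33 and -1.06. The count of genes at least 2-fold lower was 3 in every one. For RPL22 and RPL13A, with 1 probe each, other level filters, the probe mean and the 65000 cut returned the reported ratio. Those settings are repeats for these genes and not separate support. RPL39L lay between -0.81 and -0.67.

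**Figure D4:**
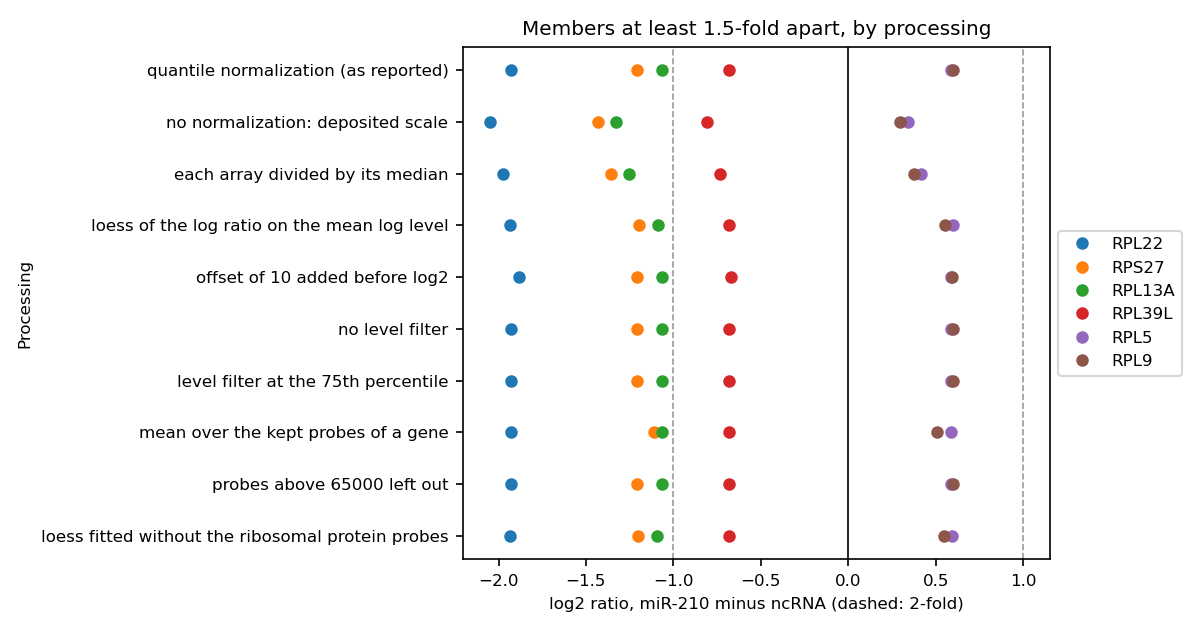
Log2 ratio, miR-210 minus ncRNA, of the 6 members at least 1.5-fold apart, under the reported processing (top line) and 9 alternatives; dashed lines mark 2-fold. RPL22, RPS27 and RPL13A lie beyond -1 in every line, while RPL5 and RPL9 are above 0 but nearer to it without normalization.

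Ribosome production also needs assembly factors, which cut and fold the ribosomal RNA in the nucleolus. Of 79 listed genes 47 were kept, 30 above 0 and 17 under it, with a median log2 ratio of 0.14. At 1.5-fold, 6 were higher and 3 lower, against 11.9% of all genes higher and 10.8% lower. DDX56, a nucleolar RNA helicase, read 98 on the miR-210 array and 212 on the ncRNA array, or 2.01-fold lower with miR-210. WDR36, a small subunit processome protein, read 527 on the miR-210 array and 293 on the ncRNA array (log2 ratio 0.96). GRWD1, the dedicated chaperone of RPL3, read 117 on the miR-210 array and 67 on the ncRNA array (0.91), and NOLC1, a nucleolar phosphoprotein, read 1052 on the miR-210 array and 673 on the ncRNA array (0.78). The median was -0.0073 without normalization.

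For RNA polymerase I and its partners, which make ribosomal RNA, 11 of 21 listed genes were kept, with a median log2 ratio of 0.11, or -0.062 without normalization. None was 1.5-fold apart (0 of 11), against 11.9% of all genes higher and 10.8% lower. The farthest from 0 were POLR1D, a subunit shared with RNA polymerase III, at -0.43, TAF1A at 0.39, POLR1H at -0.34 and TAF1B at 0.34. The second kept probe of POLR1D stood at -0.31.

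Other mRNAs known to begin with the pyrimidine tract gave 16 kept genes of 24 listed, 6 above 0 and 9 under it, with a median log2 ratio of -0.08, or -0.28 without normalization and -0.20 with each array divided by its median. EEF1B2, an exchange factor of elongation, stood at 0.97 (397 on the miR-210 array and 220 on the ncRNA array), and its second kept probe at 0.52. PABPC1, the poly(A) binding protein, stood at -0.83 (104 on the miR-210 array and 200 on the ncRNA array). The histone chaperone NAP1L1 stood at -0.63 and the initiation factor subunit EIF3H at -0.48. After quantile normalization members of this list thus lay on both sides of 0, as the ribosomal proteins did. On the deposited scale 31 of the 35 ribosomal protein genes read lower with miR-210.

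The list around MDM2 and p53, to which RPL5 is tied, held 8 kept genes of 13, with a median log2 ratio of 0.12 (0.0065 without normalization), 6 above 0 and 2 under it. BBC3, a pro-apoptotic gene, stood at 0.90 (260 on the miR-210 array and 152 on the ncRNA array) and the cell cycle inhibitor CDKN1A at 0.79 (802 on the miR-210 array and 504 on the ncRNA array). SESN1 stood at 0.45 and MDM2, the ligase that degrades p53, at -0.35. CDKN2A stood at 0.15, GADD45A and TP53I3 at 0.08 and NOP53 at -0.09. At 1.5-fold, 2 of the 8 were higher and 0 lower, against 11.9% of all genes higher and 10.8% lower.

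Chaperones and quality control factors that act on ribosomes gave 12 kept genes of 22, with a median log2 ratio of 0.25, 8 above 0 and 3 under it. That median was 0.11 without normalization, 0.11 with no level filter and 0.38 with the filter at the 75th percentile. RNF14, a ligase that acts on stalled ribosomes, was 2.44-fold higher (312 on the miR-210 array and 138 on the ncRNA array). HSPA14, a ribosome-bound chaperone, stood at 0.68, the collision sensor EDF1 at 0.52 and GTPBP1 at 0.48. Of the genes mutated in Diamond-Blackfan anaemia, an inherited failure of red cell production, 6 of 22 were kept, all of them ribosomal proteins described above. Their median log2 ratio was 0.06, but -0.245 without normalization and -0.17 with each array divided by its median. RPS27 was lowest among them at -1.21 and RPL5 highest at 0.59, with RPL35A at 0.33 and RPL18 at 0.09.

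**Figure D5:**
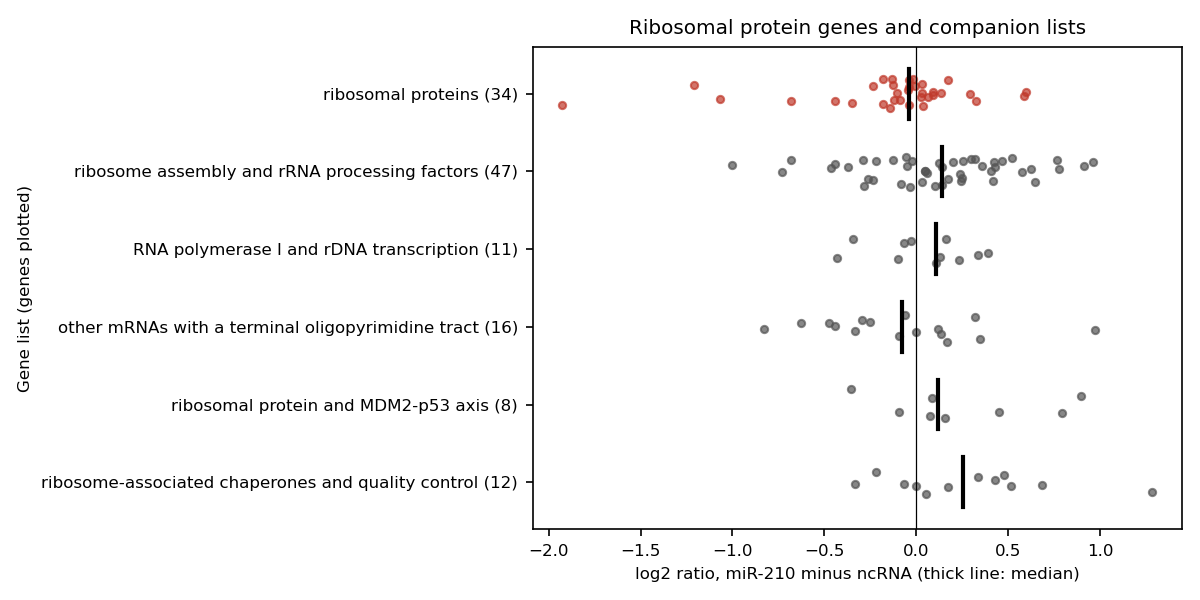
Log2 ratio, miR-210 minus ncRNA, of 34 kept ribosomal protein genes (red) and of the kept genes of 5 companion lists (grey), with the median as a thick line. The list medians run between -0.08 and 0.25, and RPL22 at -1.93 is the lowest point plotted.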

How the data were processed

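Total RNA of 2 transfected KYSE-170 cultures was measured on 1-colour arrays, 1 per group, as the labels state, and titles gave the groups. The authors deposited linear intensity values for 24267 probes. Its unit was read from the values, which run between -8 and 65496, and how the authors corrected background or normalized is not given in the sources used here. Probes above 0 on both arrays (24177) were taken to the log2 scale and quantile normalized, and those whose mean level reached the median of all probes were kept (12090). A gene took its brightest kept probe. Names came from the platform annotation for the 13395 probes with a single gene symbol. Of these symbols 2285 were updated through RefSeq (GRCh38.p14), and no member symbol needed an update. Members, lists and rules were chosen with earlier results of these data known. Full values were planned for members at least 1.5-fold apart on any probe, paralogues and their parents, RPL5, RPL11, the stalk and members with several probes, and for the 4 kept genes of each list farthest from 0. Start sequences were searched after the ratios were seen. The normalization was tested on simulated data in which equal numbers of probes, drawn at random from the brighter probes only, were raised and lowered. A common shift of a group of bright probes was not simulated, so that case was not tested. Python 3.11.15 was used with pandas and statsmodels (loess, span 0.3). With 1 array per group no test was possible, and the number of arrays limits the precision.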

Additional observations from a re-analysis of the deposited data

Results flagged for a closer look

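Pseudogene probes were left out of the comparison. Of the 2 on the array, 1 was at least 1.5-fold higher with miR-210 after normalization, against 11.9% of all genes kept. The RPL34P1 probe read 612 on the miR-210 array and 439 on the ncRNA array. After normalization it was 1.52-fold higher, a log2 ratio of 0.60 against a limit of 0.585. No fold on the deposited scale is given for it. The probe of RPL34 itself read 492 on the miR-210 array and 724 on the ncRNA array. The other, RPSAP15, read 5052 on the miR-210 array and 4520 on the ncRNA array. It was 1.28-fold higher.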

How the results depend on the processing

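On the deposited scale the median log2 ratio was -0.29 for all ribosomal proteins, -0.30 for the large subunit, -0.34 for the small subunit, -0.062 for RNA polymerase I, -0.28 for the other pyrimidine tract mRNAs, 0.0065 for the MDM2 list, -0.245 for the anaemia genes, -0.0073 for assembly factors and 0.11 for ribosome-associated chaperones. The median of all genes was -0.12 on that scale, against 0.007 as reported. There 140 genes were at least 2-fold higher and 318 lower, against 202 and 213 as reported. With each array divided by its median, the values were -0.21 for all ribosomal proteins, -0.22 for the large subunit, -0.26 for the small subunit, -0.20 for the pyrimidine tract mRNAs and -0.17 for the anaemia genes. No ribosomal protein was 1.5-fold higher (0) in those 2 settings, and 1 was with loess on level, with the mean over probes, and with loess fitted without the ribosomal protein probes, a setting chosen after seeing the data. The chaperone list moved to 0.11 with no level filter and to 0.38 with the filter at the 75th percentile. The same 2 filters gave 874 and 95 genes at least 2-fold higher, and 862 and 97 lower. Of 198 recomputed values 172 moved by less than their limits (0.1 for a median, the probe SD for a gene, 1.5 times for a count). Some of these are repeats, because a level filter or the probe mean cannot change a bright gene with 1 probe. No paired analysis was possible because each group has 1 array. Detection calls were not used here.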
